A study of Drosophila melanogaster with 8 samples.

Results

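The JAK-STAT pathway genes followed here are the cytokine receptor gene dome, the kinase gene hop, the transcription factor gene Stat92E and the negative regulators Socs36E, Socs16D, Su(var)2-10 and Ptp61F. Members were the array's probe sets whose annotation gives 1 gene symbol equal to one of these 7 names, with upper and lower case kept apart because Hop was used for a different gene. This gave 8 probe sets of 5 genes, out of 10845 genes with a probe set of 1 symbol. Stat92E, dome and Ptp61F had 2 probe sets each, and Socs16D and Su(var)2-10 had 1 each. The genes hop and Socs36E were matched to no probe set and were not analysed here.

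The samples were cultures of L57, a Drosophila melanogaster cell line grown in serum-containing medium, whose biotin-labelled cRNA was read on 8 one-colour Affymetrix arrays. The groups were the solvent control DMSO, which the series text lists as 0 h, and juvenile hormone III (JH III, 1 µM), with which cells had been exposed 3, 6 or 12 h, 2 arrays in each group. DMSO arrays at the later times were not analysed here, so effects of JH III and of time under treatment cannot be told apart. The source label of DMSO replicate 1 speaks of embryos, although its protocol describes the cell line, and the labels do not say whether replicates were separate cultures, so that p-values measure the spread between arrays and this may be technical.

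In flies, secreted Unpaired ligands bind the receptor Domeless, which activates the Janus kinase Hopscotch. The kinase phosphorylates Stat92E, the only STAT protein of the fly, which then enters the nucleus and switches on target genes. SOCS proteins, the PIAS protein Su(var)2-10 and the tyrosine phosphatase Ptp61F restrain the signal. The pathway is known in fly blood cells for its part in their proliferation and differentiation and in immune responses. The arrays measured transcript levels and not phosphorylation of Stat92E, so no value below is a measure of pathway activity.

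The deposited signals had been brought to a common trimmed mean by the authors, and centring each array on its median would move the median change of all probe sets from 0.03, 0.05 and 0.00 to -0.13, -0.10 and -0.12 at 3, 6 and 12 h. All changes are on the scale of log2(signal + 25) relative to the authors' scaling, with standard errors from a limma fit over 8380 probe sets unless marked SD, and a probe set was called at a Benjamini-Hochberg adjusted p under 0.05. On JH III 6 h replicate 2 stretches of the table were unreadable and were set to missing, so 4 of the 8 member probe sets have 1 array at 6 h. Relative to DMSO the 3′ to 5′ signal ratio of the actin control lay 0.19, 0.19 and 0.21 higher on the log2 scale at 3, 6 and 12 h. For the GAPDH control the differences were -0.02, 0.06 and 0.01. Of 19 hemocyte markers, 18 had a probe set and 13 passed the filter on dim signal, among them Hml, Pxn and Col4a1, while NimC1, lz, Sr-CI, NimC4 and eater were dim. Only 1 of 7 neuronal and 1 of 5 muscle markers on the array passed it, against 4 of 6 fat body and 3 of 6 germline markers. Another set of 13 hemocyte markers was readable on all arrays, 8 that passed the filter and these 5 dim ones, while srp, Col4a1, Pvr, ush and Glt had 1 array at 6 h. Its summed signal was 11377 and 11505 under DMSO. After JH III the sum read 16712 and 16893 at 3 h, then 15242 and 15751 at 6 h, then 10503 and 11150 at 12 h, and the part of this shift in the results below was not tested. Over the markers of other types readable on all arrays, the fat body sum lay between 346 and 369 under DMSO, 357 and 459 at 3 h, 462 and 506 at 6 h, then 479 and 598 at 12 h. The germline sum lay between 5125 and 5265 under DMSO, 5150.02 and 5359.8 at 3 h, 5204 and 6041 at 6 h, then 4426 and 4762 at 12 h. The muscle sum, of mostly dim markers, lay between 105 and 137 under DMSO, 70.4 and 116 at 3 h, 218 and 220.2 at 6 h, then 179.5 and 179.7 at 12 h. The neuronal sum, also dim, lay between 89.9 and 129 under DMSO, 114 and 136 at 3 h, 54.5 and 125 at 6 h, then 113 and 180.3 at 12 h. In such bulk samples a change in the share of cells of a type and a change in the RNA of these genes per cell cannot be told apart.

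Under JH III the main Stat92E probe set rose at 3 h and 6 h and did not pass at 12 h. The suppressor of cytokine signalling gene Socs16D rose at 3 h, and the brighter probe set of the phosphatase gene Ptp61F fell at 12 h. The Socs16D call held in 9 of 17 other processing settings and the Ptp61F call in 8 of 17. The receptor gene dome and the PIAS gene Su(var)2-10 passed the threshold in no comparison with DMSO. At 3 h 2 of the 7 tested member probe sets were higher, where 10.6% of all 8380 probe sets were, and 0 were lower, where 8.16% were (3 had an unadjusted limma p under 0.05 in either direction). At 6 h 1 was higher (7.32% of all) and 0 were lower (6.21%), with 2 at an unadjusted p under 0.05. At 12 h 0 were higher (3.34%) and 1 was lower (2.58%), also with 2 at an unadjusted p under 0.05. With 7 probe sets of 5 genes, these counts do not set the pathway apart from the array as a whole. The share of all probe sets at an unadjusted p under 0.05 was not determined, so the unadjusted counts cannot show an excess. The median change of the tested member probe sets was 0.23, 0.35 and -0.16 at 3, 6 and 12 h, beside 0.03, 0.05 and 0.00 for all probe sets. Stat92E and dome enter it with 2 probe sets each, and 4 of the 7 values at 6 h rest on 1 array. The 0.35 is itself such a value, of Stat92E 142088_at, and the difference between the medians was not tested. The 3 comparisons share the same DMSO arrays.

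**Figure D1:**
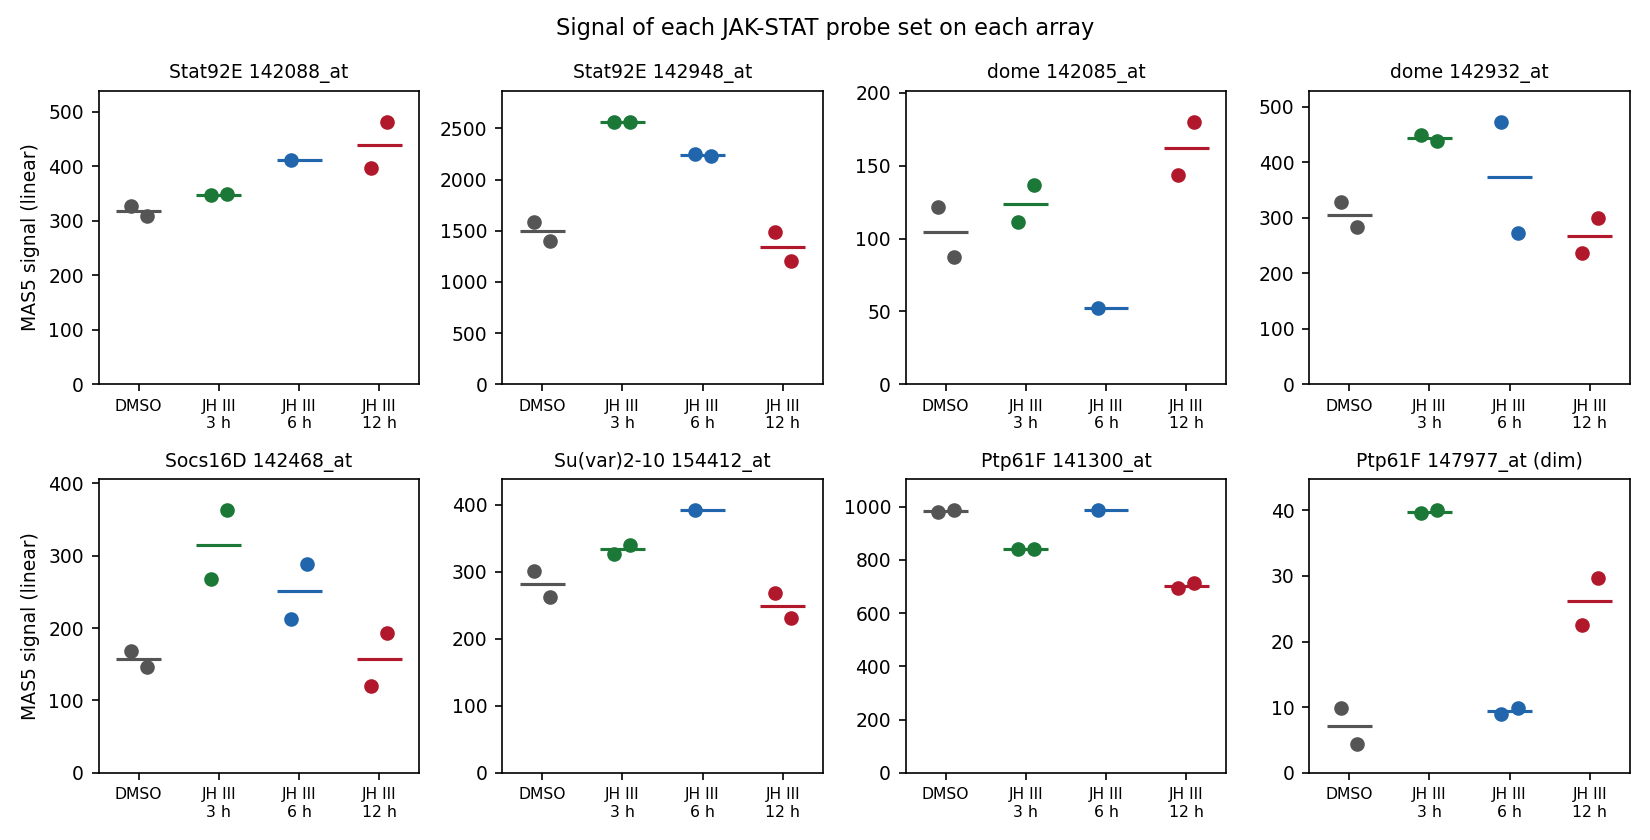
MAS5 signal (linear scale from 0) of the 8 member probe sets on each array of the 4 groups. Points are arrays, with replicate 1 left of replicate 2, bars are group means, and a single point at 6 h marks a probe set unreadable on JH III 6 h replicate 2. For Stat92E 142948_at the 3 h and 6 h points, from 2227 to 2562, lie above all DMSO and 12 h points, and for Ptp61F 141300_at the 12 h points, 695 and 712, lie below all others.

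The receptor gene dome encodes the transmembrane receptor related to the vertebrate interleukin-6 receptor family. Its brighter probe set, 142932_at, read 329 and 283 under DMSO, 450.1 and 439 at 3 h, 473 and 273 at 6 h, then 237 and 299 at 12 h. Both 3 h arrays lay above both DMSO arrays, the 6 h arrays lay on either side of them, and the 12 h arrays overlapped them. The change was 0.51 ± 0.23 at 3 h (adjusted p = 0.169), 0.22 ± 0.23 at 6 h (adjusted p = 0.587) and -0.18 ± 0.23 at 12 h (adjusted p = 0.709). The 95% interval of the 3 h change ran from -0.02 to 1.03. A fit to the DMSO and 3 h arrays alone gave the same 0.51 with an adjusted p of 0.0425. The 12 h arrays lay below both 3 h arrays, with a difference of -0.69 ± 0.23 (adjusted p = 0.0759, and 0.0286 or 0.0260 without JH III 6 h replicate 1 or 2).

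The other dome probe set, 142085_at, was dimmer and followed a different course. It read 122 and 87.1 under DMSO, 111 and 136 at 3 h, 52.3 on the 1 readable array at 6 h, then 144 and 180.0 at 12 h. The 6 h array was the lowest of all and the 12 h arrays were the highest. Against DMSO the changes were 0.21 ± 0.28 at 3 h, -0.73 ± 0.34 at 6 h and 0.53 ± 0.28 at 12 h (adjusted p = 0.667, 0.199 and 0.305). At 12 h the signal was 2.41-fold that at 6 h (1.27 ± 0.34, adjusted p = 0.0427), a call that rests on 1 array at 6 h. It was lost without any 1 of the DMSO, 3 h or 12 h arrays (adjusted p from 0.0575 to 0.119), with quantile normalization (0.0842), with no filter (0.0920) and in a fit of the compared groups alone (0.0933). The gap between the dome probe sets, 142932_at minus 142085_at on the log2 scale, was 1.27 and 1.46 under DMSO, 1.80 and 1.52 at 3 h, 2.69 at 6 h and 0.64 and 0.66 at 12 h.

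Next to dome in the RefSeq gene table (Release 6 plus ISO1 MT) lies et, eye transformer, which encodes a short receptor related to Domeless that dampens the pathway. Its signal was 152 and 212 under DMSO, 82.3 and 144 at 3 h, 176 and 138 at 6 h, then 141 and 56.7 at 12 h. The 3 h and 12 h replicates were far apart, and the changes of -0.60 ± 0.38, -0.18 ± 0.38 and -0.81 ± 0.38 did not pass (adjusted p = 0.311, 0.80 and 0.247). The ligand gene upd3 was matched to no probe set and was not analysed here. The ligand genes upd1 and upd2 were below the signal of 61.5 that the filter required. Signals of upd1 lay between 2.46 and 25.4 over the 8 arrays, and those of upd2 between 5.18 and 7.30, so no change was tested for either.

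Stat92E encodes the transcription factor at the end of the pathway. Its brighter probe set, 142948_at, read 1589 and 1402 under DMSO, 2562 and 2559 at 3 h, 2253 and 2227 at 6 h, then 1487 and 1199.7 at 12 h. All 4 arrays of 3 h and 6 h lay above the DMSO and 12 h arrays, with no overlap, while DMSO and 12 h overlapped. Group means were 2561 ± 2.16 at 3 h against 1496 ± 132 under DMSO (SD, n = 2 each). At 3 h the probe set rose 1.70-fold (0.77 ± 0.11, adjusted p = 0.00176), and at 6 h it rose 1.49-fold (0.58 ± 0.11, adjusted p = 0.00881). The 3 h call held under all 18 other settings tried, with changes from 0.61 to 0.86. The 6 h call did not hold without DMSO replicate 2 (0.49, adjusted p = 0.0801), without JH III 6 h replicate 1 (0.57, adjusted p = 0.0502) and without a variance trend (adjusted p = 0.0592).

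By 12 h this probe set gave -0.16 ± 0.11 against DMSO (adjusted p = 0.432), with a 95% interval from -0.40 to 0.08. The order of levels was 3 h, 6 h, DMSO, 12 h, in which 3 h and 6 h (6 h minus 3 h: -0.19 ± 0.11, adjusted p = 0.522) and 12 h and DMSO were neighbours whose difference did not pass. The 12 h level fell by 0.93 ± 0.11 relative to 3 h (adjusted p = 0.000695) and fell by 0.74 ± 0.11 relative to 6 h (adjusted p = 0.00244), and both calls held under all 18 other settings. Among all probe sets 9.02% were called lower at 12 h than at 3 h and 7.37% lower than at 6 h, where 2 of the 7 member probe sets were in each comparison. The mean of the 3 exposures lay 0.40 ± 0.09 above DMSO (adjusted p = 0.0177), where 7.96% of all probe sets were called higher. It did not hold without DMSO replicate 1 (0.48, adjusted p = 0.0605) or 2 (0.31, adjusted p = 0.203), and with median centring (adjusted p = 0.0796) or no variance trend (0.0793). The 3′ to 5′ ratio of the eIF4A control lay 0.29 above DMSO at 3 h, 0.067 at 6 h and 0.17 at 12 h, and its part in the Stat92E course was not tested.

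The second Stat92E probe set, 142088_at, read 328 and 309 under DMSO, 347 and 349 at 3 h, 412 on the 1 readable array at 6 h, then 397 and 482 at 12 h. Every JH III array lay above both DMSO arrays, and the highest was at 12 h, where the other probe set was lowest. The changes were 0.12 ± 0.15 at 3 h, 0.35 ± 0.18 at 6 h and 0.43 ± 0.15 at 12 h (adjusted p = 0.640, 0.252 and 0.131), so none was called. At 12 h the 95% interval of 142088_at, 0.09 to 0.77, lay above that of 142948_at, but the difference between the probe sets was not tested. On the log2 scale 142948_at exceeded 142088_at by 2.19 and 2.09 under DMSO, 2.80 and 2.79 at 3 h, 2.38 at 6 h, then 1.84 and 1.27 at 12 h. The RefSeq table lists 11 transcripts for Stat92E and 1 for dome, and which transcripts each probe set reads was not determined, since the probes were not realigned.

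**Figure D2:**
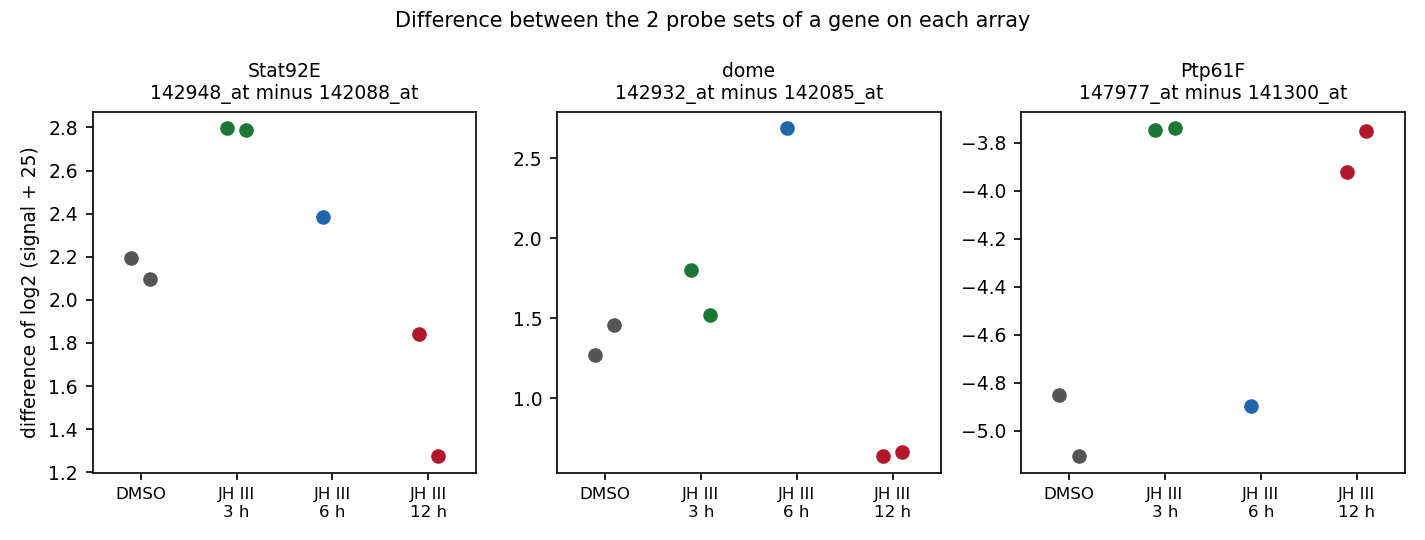
Difference between the 2 probe sets of Stat92E, dome and Ptp61F on each array, in log2(signal + 25), by group. Points are arrays (7 for each gene, since 1 probe set of each was unreadable on JH III 6 h replicate 2), and the Stat92E difference was 2.80 and 2.79 at 3 h and 1.84 and 1.27 at 12 h, with no test of the change in this difference.

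Socs16D belongs to the SOCS family, whose best known fly member, Socs36E, is a target and feedback inhibitor of the pathway. Its probe set 142468_at read 169 and 147 under DMSO, 268 and 363 at 3 h, 213 and 289 at 6 h, then 121 and 193 at 12 h. The 3 h and 6 h arrays all lay above the DMSO arrays, and the 12 h arrays fell on either side of them. Socs16D rose 1.85-fold at 3 h (0.89 ± 0.26, adjusted p = 0.0412) and gave 0.58 ± 0.26 at 6 h (adjusted p = 0.171) and -0.03 ± 0.26 at 12 h (adjusted p = 0.960). The 12 h level fell by 0.92 ± 0.26 relative to 3 h (adjusted p = 0.0401).

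The replicate spread of Socs16D was wide, with means of 315 ± 67.1 at 3 h against 158 ± 15.5 under DMSO (SD, n = 2 each). The 3 h call was lost when either DMSO array or either 3 h array was left out, with changes from 0.68 to 1.09 and adjusted p from 0.0732 to 0.218. It was also lost with quantile normalization (adjusted p = 0.260), median centring (0.0760), no filter (0.0850) and no variance trend (0.0743). The fall at 12 h relative to 3 h was lost without either DMSO array, without either 3 h array and without JH III 12 h replicate 1 (adjusted p from 0.0598 to 0.212). It was also lost with quantile normalization (0.206), median centring (0.0501), no filter (0.0818), no variance trend (0.0776) and a fit of the compared groups alone (0.0717), so that it held in 7 of 17 other settings.

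Su(var)2-10 encodes the PIAS protein of the fly, a SUMO ligase that binds Stat92E and is also known for its part in chromosome structure. Its probe set 154412_at read 301 and 262 under DMSO, 326 and 340.3 at 3 h, 391 on the 1 readable array at 6 h, then 268 and 231 at 12 h. The 3 h and 6 h arrays lay above both DMSO arrays, and the 12 h arrays overlapped them. None of the changes passed, at 0.23 ± 0.16 for 3 h, 0.45 ± 0.20 for 6 h and -0.16 ± 0.16 for 12 h (adjusted p = 0.380, 0.183 and 0.621). The 12 h arrays lay below the 6 h array by -0.61 ± 0.20 (adjusted p = 0.0807) and below both 3 h arrays by -0.39 ± 0.16 (adjusted p = 0.144).

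Ptp61F encodes a tyrosine phosphatase related to mammalian PTP1B that acts against Hopscotch and Stat92E. Its brighter probe set, 141300_at, read 981 and 986 under DMSO, 842 on each array at 3 h, 986 on the 1 readable array at 6 h, then 695 and 712 at 12 h. The 3 h arrays lay below DMSO, the 6 h array lay at its upper end, and the 12 h arrays were the lowest. Means were 704 ± 12.2 at 12 h against 983 ± 3.40 under DMSO (SD, n = 2 each). Ptp61F fell by 0.47 ± 0.09 at 12 h relative to DMSO (adjusted p = 0.0247), to 0.723 of the DMSO level on the scale with 25 added. It gave -0.22 ± 0.09 at 3 h (adjusted p = 0.136, and -0.38 with 0.0249 under median centring) and 0.00 ± 0.11 at 6 h (adjusted p = 0.988).

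The size of the Ptp61F change at 12 h varied little, from -0.59 to -0.42 over the other settings, but its call did not hold in 9 of 17. It did not hold without DMSO replicate 1 or 2 (adjusted p = 0.146 and 0.161), without JH III 3 h replicate 1 or 2 (0.0515 for each) and without JH III 12 h replicate 1 or 2 (0.0639 and 0.0581). Quantile normalization (adjusted p = 0.229) and no variance trend (0.108) also ended it. Relative to the 1 readable 6 h array the 12 h level fell by 0.47 ± 0.11 (adjusted p = 0.0269). That call did not hold without DMSO replicate 1 or 2 or JH III 12 h replicate 1 (adjusted p = 0.0576, 0.0575 and 0.0547), with quantile normalization (0.176), with no variance trend (0.0718) and in a fit of the compared groups alone (0.116). The mean of the spiked hybridization controls was 0.54 above DMSO on the log2 scale at 12 h, and its part in the result was not tested.

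The second Ptp61F probe set, 147977_at, was below the filter. It was listed at 9.82 and 4.34 under DMSO, 39.65 and 39.99 at 3 h, 8.91 and 9.84 at 6 h, then 22.5 and 29.8 at 12 h. The 3 h and 12 h arrays were above the others, which is not the course of the brighter probe set. With no filter the change was 1.02 ± 0.19 at 3 h (adjusted p = 0.0154), at signals where the array gives little above background.

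**Figure D3:**
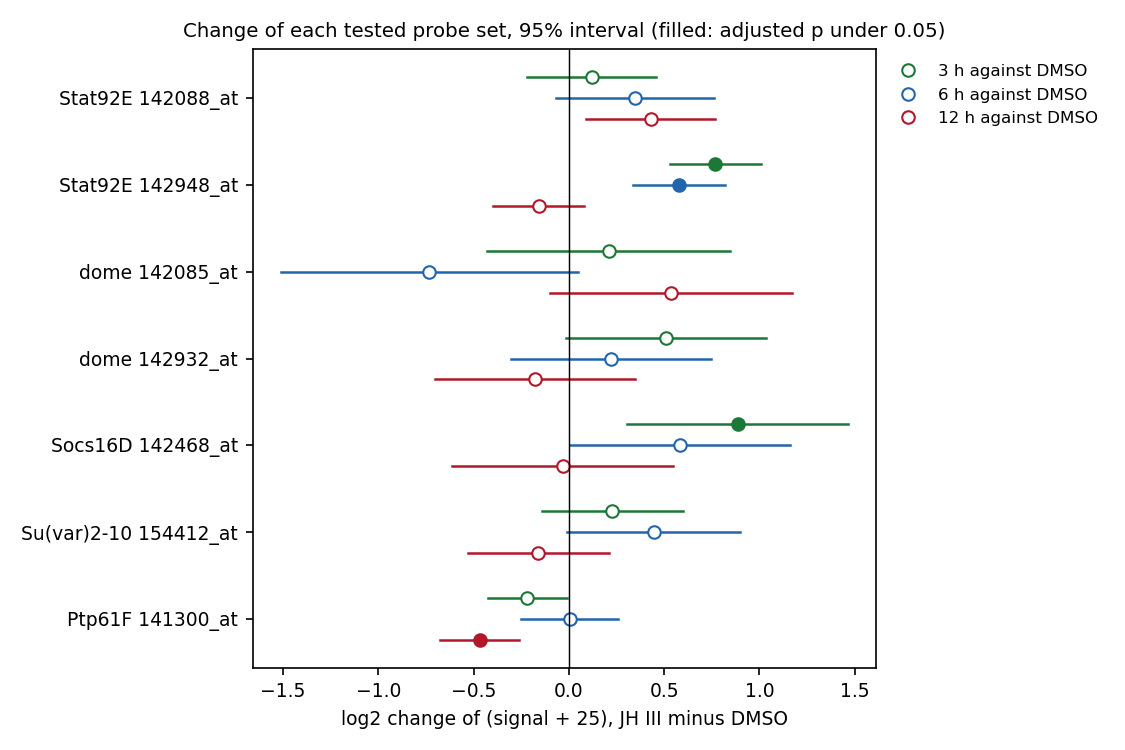
Change of the 7 tested member probe sets against DMSO at 3, 6 and 12 h of JH III, in log2(signal + 25). Points are limma estimates with 95% intervals, filled where the adjusted p is under 0.05, which holds for Stat92E 142948_at at 3 h (0.77) and 6 h (0.58), Socs16D at 3 h (0.89) and Ptp61F 141300_at at 12 h (-0.47).

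Tests between exposure times used no DMSO array in the difference itself. At 12 h against 3 h 2 member probe sets were lower and 0 were higher (7.48% of all probe sets were called higher), and 5 of the 7 had both 12 h arrays below both 3 h arrays, which 34.2% of all probe sets had. At 12 h against 6 h 2 were lower and 1 was higher, the dimmer dome probe set, where 6.95% of all were called higher. At 6 h against 3 h limma called 0 member probe sets, where 0.0597% of all probe sets were called. Of the 7, 1 had an unadjusted limma p under 0.05 there, for which the share of all probe sets was not determined. Any difference among the 4 groups was called for Stat92E 142948_at (adjusted p = 0.000990) and Ptp61F 141300_at (adjusted p = 0.0166), 2 of 7, beside 23.5% of all. Against DMSO 5 of the 7 had all readable arrays higher at 3 h and at 6 h, beside 34.6% and 37.1% of all, and 2 at 12 h, beside 26.1%. At each of these times 1 of the 7 had all readable arrays lower, beside 27.8%, 28.2% and 25.6% of all at 3, 6 and 12 h. The 6 h counts cannot show an excess, since 1 array lies outside DMSO more easily than 2. There 4 of the 7 had 1 readable array, beside 2611 of all 8380 probe sets. Among those counted as higher, Stat92E 142088_at, Su(var)2-10 and Ptp61F 141300_at rested on 1 array, as did the lower one, dome 142085_at. At 6 h Ptp61F 141300_at read 985.63, against 980.796 and 985.605 under DMSO.

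Further genes of the pathway came from lists, with the brightest probe set standing for a gene. Of 11 other regulators 10 were tested, and at 3 h 3 rose and 1 fell, with a median change of 0.31, where 10.6% of all probe sets were called higher and 8.16% lower and their median was 0.03. The co-repressor gene CtBP read 2480.0 and 2429 at 3 h, against 1596 and 1520.2 under DMSO, and rose by 0.65 ± 0.07 (adjusted p = 0.000785). E(bx), a subunit of the NURF chromatin remodeller, read 830.0 and 778 at 3 h, against 398 and 474 under DMSO. It rose by 0.85 ± 0.13 (adjusted p = 0.00253), and its other probe sets gave 1.29 and 0.83 (adjusted p = 0.00754 and 0.0458). The gene ken, whose BCL6-like repressor binds sites that overlap those of Stat92E, rose by 0.51 ± 0.14 (adjusted p = 0.0340).

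For asrij the direction at 12 h was the opposite of that at 3 h and 6 h. Its product is an endosomal protein known to promote Stat92E activity in fly blood progenitors. The signal was 2749 and 2521 under DMSO, 1825 and 1732 at 3 h, 1864 and 2032 at 6 h, then 3919 and 4159 at 12 h, with no overlap between DMSO and any exposure. It fell by 0.56 ± 0.08 at 3 h (adjusted p = 0.00194), fell by 0.43 ± 0.08 at 6 h (adjusted p = 0.00881) and rose by 0.61 ± 0.08 at 12 h (adjusted p = 0.00400), and none of these calls held with quantile normalization. Of the 10 regulators 3 rose and 1 fell at 6 h as well, and 1 rose and 0 fell at 12 h, with medians of 0.38 and -0.02. Of all probe sets 7.32% were called higher and 6.21% lower at 6 h, and 3.34% higher and 2.58% lower at 12 h, with medians of 0.05 and 0.00. At 6 h the count of rises was 0 without DMSO replicate 2 and 1, CtBP, without DMSO replicate 1 or any 1 of the 3 h and 6 h arrays, and the fall was lost without DMSO replicate 1 or JH III 6 h replicate 1. At 12 h the rise was lost without DMSO replicate 2, and with median centring 0 rose at 6 h. Another SOCS gene, Socs44A, gave 1.33 ± 0.57 at 3 h (adjusted p = 0.141), and its DMSO arrays were far apart at 208 and 47.1.

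Of 6 SUMO conjugation genes, the machinery that Su(var)2-10 works with, 5 were tested, and 2 rose and 1 fell at 3 h with a median of -0.13, beside 10.6% higher, 8.16% lower and a median of 0.03 over all probe sets. With 5 genes this does not set the list apart from the array. The SUMO protease gene Ulp1 read 1005 and 868 at 3 h, against 581 and 605 under DMSO, and rose by 0.63 ± 0.12 at 3 h (adjusted p = 0.00649) and 0.73 ± 0.12 at 6 h (adjusted p = 0.00461). The SUMO gene smt3 rose by 0.34 ± 0.09 at 3 h (adjusted p = 0.0283), and Aos1, a subunit of the SUMO-activating enzyme, fell by 0.37 ± 0.07 (adjusted p = 0.00926). At 6 h 1 rose, which was Ulp1, and 0 fell, beside 7.32% higher and 6.21% lower over all probe sets. At 12 h limma called 0 of the 5, beside 3.34% higher and 2.58% lower. Without JH III 3 h replicate 1 the counts at 3 h were 0 and 0, without JH III 3 h replicate 2 or DMSO replicate 1 only 1 rose, and without DMSO replicate 2 1 rose and 0 fell.

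Of 22 reported pathway targets 11 had a probe set and 9 were tested. At 3 h 2 rose and 0 fell, with a median of 0.32, beside 10.6% higher, 8.16% lower and a median of 0.03 over all probe sets. At 6 h 2 rose and 0 fell, with a median of 0.30, beside 7.32% higher, 6.21% lower and a median of 0.05. ImpL2, a secreted binder of insulin-like peptides, read 2838 and 2812 at 3 h, against 1606 and 1629.6 under DMSO, and rose by 0.79 ± 0.09 at 3 h (adjusted p = 0.00107) and by 1.30 ± 0.11 at 6 h (1 readable array, adjusted p = 0.000569). The cyclin gene CycD rose by 0.44 ± 0.10 at 3 h (adjusted p = 0.0178). The brightest probe set of chinmo, a transcriptional regulator that acts downstream of Stat92E in testis stem cells, rose by 1.09 ± 0.30 at 6 h (adjusted p = 0.0441), while its other probe sets gave 1.10 and 0.48 (adjusted p = 0.114 and 0.370). For vir-1, a virus-induced gene known to depend on the pathway, all JH III arrays lay below both DMSO arrays, yet the changes of -0.55, -0.73 and -0.69 did not pass (adjusted p = 0.250, 0.148 and 0.220). At 12 h 0 of the 9 targets were called, beside 3.34% higher and 2.58% lower over all probe sets. Without DMSO replicate 1, DMSO replicate 2 or JH III 3 h replicate 1 only ImpL2 passed at 3 h. At 6 h ImpL2 alone passed without either DMSO array, either 12 h array or JH III 6 h replicate 2. Without JH III 6 h replicate 1 ImpL2 had no readable value at 6 h. It was then not tested, and the count was 0 among the targets that were.

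**Figure D4:**
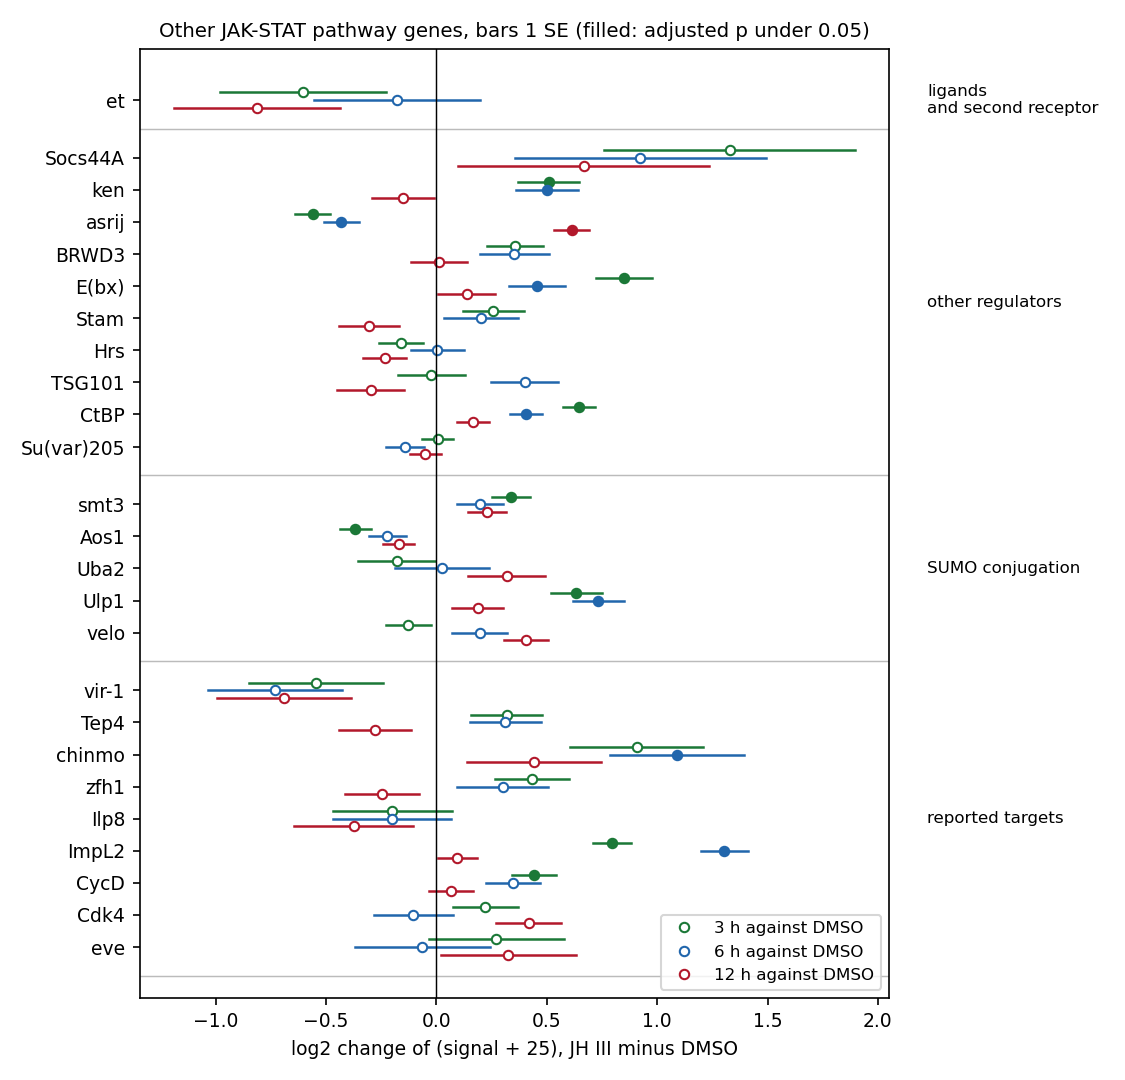
Change against DMSO at 3, 6 and 12 h of JH III for the tested genes of the 4 further lists, each with its brightest probe set, in log2(signal + 25). Points are limma estimates with bars of 1 standard error, filled where the adjusted p is under 0.05; asrij gives -0.56, -0.43 and 0.61, and et, Socs44A and vir-1 have wide bars and no filled point.

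The genes most like each member in pattern over the arrays were found by Pearson correlation of log2 values, among 4663 or 4664 genes readable on every array, and are given as a description because arrays of the same group share their treatment. Those nearest Stat92E 142948_at over 8 arrays were Arms (r = 0.990), Ppn (0.986), which encodes the matrix protein papilin made by blood cells, and the calnexin gene Cnx99A (0.981). Those nearest Socs16D were mei-P26 (0.972), CG42324 (0.972) and CG5704 (0.955), and those nearest dome 142932_at were Vang (0.943), Sur-8 (0.940) and Abp1 (0.935). Over 7 arrays, those nearest Su(var)2-10 were Nup98-96 (0.994), Brms1 (0.988) and Eip78C (0.987), and those nearest Ptp61F 141300_at were the circadian gene cyc (0.986), Hmgs (0.973) and CG9004 (0.973).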

How the data were processed

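The deposited values are linear signal intensity, 1 per probe set, which the authors computed with MAS5, per the submitters' processing notes (version not given in the sources used here). With 2% trimmed off each end, the 7 intact arrays shared a mean of 500.1. On JH III 6 h replicate 2, 3151 of 14010 values were unreadable (3146 zeros and 5 impossible values among them) and were set to missing. The 44 array controls were left out, as were 5586 probe sets with a mean log2(signal + 25) under the 40th percentile, a signal of 61.5, which left 8380. One fit of 4 group means to all 8 arrays was made in R 4.3.3 with limma 3.58.1, using a variance trend and Benjamini-Hochberg adjustment over the 8380. Where 1 array was readable at 6 h, it is assumed to vary like the other groups. P-values are two-sided. The fit was tested on simulated data with independent normal noise of the fitted spread and with changes added at 3 h alone. Such data cannot show how the calls fare with array effects or technical replicates. The precision is limited by 2 arrays per group.

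Members and lists were chosen with earlier results of these data known. The rule for naming took every member probe set and, per member, the 3 genes most alike in pattern. It also took up to 4 called genes of each further list by size of mean change, with upd1, upd2, upd3 and et. Socs44A, given for its wide replicate spread, and vir-1, given for the direction of its arrays, were chosen after their values were seen. Symbols came from the array's annotation of probe sets, looked up in a RefSeq gene table. Other settings were quantile normalization, median centring, 0 or 100 added to the signal, no filter or the 60th percentile, no variance trend, a replicate block, only the groups compared, probe sets readable on all arrays, and each array left out. Those settings were applied to the further lists after the data were seen. No sequences were used here, and gene coordinates of the RefSeq table served only to find the gene next to dome.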

Additional observations from a re-analysis of the deposited data

Results flagged for a closer look

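For 5 differences between exposure times the test of the difference itself passed. For Stat92E 142948_at the 12 h level minus the 3 h level was -0.93 and the 12 h level minus the 6 h level was -0.74 on the log2 scale. For Socs16D the 12 h minus 3 h difference was -0.92. For Ptp61F 141300_at the 12 h minus 6 h difference was -0.47, and for dome 142085_at it was 1.27, each resting on 1 readable array at 6 h. Both Stat92E differences held in 18 of 18 other settings. The Socs16D difference held in 7 of 17, that of Ptp61F in 10 of 16 and that of dome 142085_at in 5 of 15, and these 3 were lost in a fit of the compared groups alone.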

How the results depend on the processing

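Rises and falls of single member probe sets kept their sign under every setting wherever either fit called them. Of the comparisons of member probe sets with other settings, 745 stayed on the same side of the threshold with the same sign, 50 lost a call, 7 gained one and 15 changed sign with no call in either fit. The last were Stat92E 142088_at at 3 h (-0.019 with quantile normalization, -0.042 with median centring), Ptp61F 141300_at at 6 h (-0.011 and -0.13 with the same settings) and the mean change of dome 142085_at (-0.10 and -0.14, and -0.027 with no added constant). With an array left out, signs changed within the ranges -0.048 to 0.21 for Stat92E 142088_at at 12 h against 6 h, -0.19 to 0.20 for the mean change of dome 142085_at, -0.15 to 0.59 and -0.65 to 0.085 for dome 142932_at at 6 h against DMSO and against 3 h, and -0.32 to 0.26 for Socs16D at 12 h. The number of member probe sets called at 3 h was 1 in place of 2 with quantile normalization, the filter at the 60th percentile (which removed Socs16D) and no variance trend, and 1 to 2 with an array left out. With median centring the 2 called were Stat92E 142948_at and Ptp61F 141300_at, the latter as lower. With no filter they were Stat92E 142948_at and the dim Ptp61F 147977_at. With only the groups compared 3 were called, dome 142932_at being added. At 6 h the number called was 0 in place of 1 with no variance trend, and 0 to 1 with an array left out. At 12 h it was 0 in place of 1 with quantile normalization, no variance trend, a replicate block and probe sets readable on all arrays (which removed Ptp61F 141300_at), and 0 to 1 with an array left out. For the mean of the exposures it was 0 in place of 1 with no variance trend and 0 to 1 with an array left out, and with median centring the 1 called was Ptp61F 141300_at (-0.37, adjusted p = 0.0158) and not Stat92E 142948_at. For 12 h against 3 h it was 1 in place of 2 with quantile normalization, median centring, no filter, the 60th percentile and no variance trend, and 1 to 3 with an array left out, and with only the groups compared the 2 called were Stat92E 142948_at and dome 142932_at. For 12 h against 6 h it was 1 in place of 3 with quantile normalization, probe sets readable on all arrays and only the groups compared, and 1 to 4 with an array left out. There it was 2 with no filter, the 60th percentile, no variance trend and a replicate block. For any difference it was 1 in place of 2 with quantile normalization, no variance trend and probe sets readable on all arrays, and 1 to 3 with an array left out. With no filter and with a replicate block it was 3. With quantile normalization and with median centring 1 SUMO gene rose at 3 h and 1 reported target, ImpL2, rose at 3 h and at 6 h, and with median centring Aos1 also passed as lower at 6 h and 12 h. Where not named, the cause was not tested.

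Over the tested probe sets readable on all arrays, deviations of same-numbered arrays from their group means correlated at -0.047 to 0.066. These values cannot tell whether same-numbered arrays shared a culture or a day, which the labels do not give. With the replicate number as a block, the Ptp61F change at 12 h stayed -0.47 (adjusted p = 0.0536), so the count there was 0, and dome 142085_at at 12 h against 6 h gave 1.24 (adjusted p = 0.0564). Over all probe sets, 526 were called at 3 h with quantile normalization and 1920 with median centring, in place of 1572. With an array left out this count ran from 581 (without DMSO replicate 2; 752 without DMSO replicate 1, 693 and 798 without JH III 3 h replicate 1 and 2) to 1777. At 6 h it ran from 354 to 1313 in place of 1133, at 12 h from 82 to 502 in place of 496, and for the mean of the exposures from 165 to 1272 in place of 1213. At 6 h it was lowest without DMSO replicate 2, as for the mean, and at 12 h without DMSO replicate 1 (84 without replicate 2), so the shares of all probe sets in the report depend on the DMSO arrays.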
